A study of Mus musculus with 12 samples.

Results

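Chemokines are small secreted proteins that guide leukocytes through G protein-coupled receptors. This group of chemokine genes was followed in mouse liver: Cxcl1, Cxcl9, Cxcl10, Cxcl11, Cxcl12, Cxcl13, Ccl2, Ccl4, Ccl5 and Ccl7. They were found by gene name among the non-control spots of single-colour Agilent whole-genome arrays. All 10 genes were found, on 13 of the array's 41174 probes, and all 10 were among the 19339 genes tested. The study compared how male and female livers respond to a glucocorticoid.

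All animals were adrenalectomized C57BL/6 mice aged 11 weeks, and the females were in diestrus. Adrenalectomy removes the main source of endogenous glucocorticoid, in vehicle and treated animals alike. There were 4 groups of 3 animals: males given vehicle (phosphate-buffered saline), females given vehicle, males given dexamethasone, and females given dexamethasone. Dexamethasone, a synthetic agonist of the glucocorticoid receptor, was injected intraperitoneally (1 mg/kg) 6 h before the liver was collected. Each array carried the RNA of 1 animal, and the 12 arrays sat on 3 slides of 4.

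Glucocorticoid receptor bound to its ligand is known to restrain NF-kB and AP-1, factors that switch on many chemokine genes in inflammation. In liver, chemokines come from Kupffer cells, endothelial cells, stellate cells, lymphocytes and hepatocytes. Cxcl9, Cxcl10 and Cxcl11 are induced by interferon and attract T cells through Cxcr3. Ccl2 and Ccl7 attract monocytes through Ccr2, Ccl4 and Ccl5 attract T cells and macrophages, Cxcl1 attracts neutrophils through Cxcr2, Cxcl12 retains Cxcr4-bearing cells, and Cxcl13 attracts B cells through Cxcr5.

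The 75th percentile of an array's signal was 578.2 to 1251 intensity units, and the scanner software's flag put 65.7 to 72.2% of its spots well above background. Levels are log2 intensities relative to that percentile, so a level of 0 equals the array's upper-quartile signal. Levels of different probes were not set against each other, because probes differ in brightness. Hepatocyte markers summed to 89000 to 101000% of the upper-quartile signal in the vehicle groups and 119000 to 150000% in the dexamethasone groups. Effects are log2 differences ± standard error (SE) from limma with n = 3 arrays a group, and adjusted p-values are Benjamini-Hochberg values over all genes tested. A gene was said to have risen or fallen where its adjusted p was below 0.05. One array stood apart for Cxcl1, male dexamethasone 3, and the Cxcl1 values are given with and without it.

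Dexamethasone lowered 5 of the 10 chemokines in males (Cxcl10, Ccl2, Ccl4, Cxcl11 and Cxcl12) and 4 of the 10 in females (Cxcl10, Ccl2, Ccl4 and Cxcl12). None rose past the threshold in either sex. Over all genes tested, 12.1% fell and 10.4% rose in males, and 6.88% fell and 6.79% rose in females. The median effect over the 10 chemokines was -1.5 in males and -0.88 in females, against 0.012 and 0.020 over all genes. Treated and vehicle arrays did not overlap, with treated lower, for 6 chemokines in males and 6 in females. The same held for 21.5% of all genes in males and 15.4% in females. In whole liver, fewer cells of a type and less RNA per cell cannot be told apart.

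**Figure D1:**
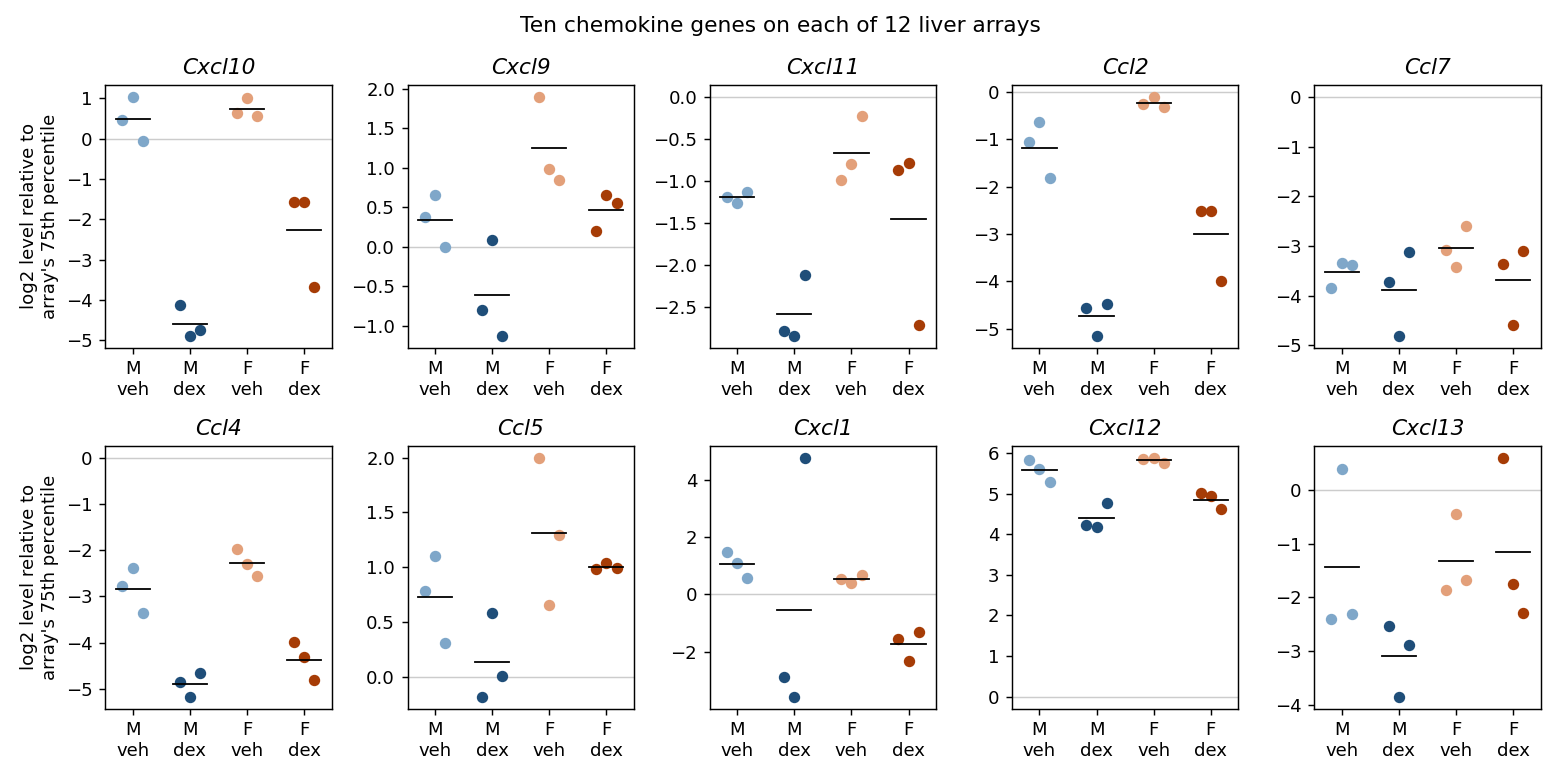
Log2 level of each of the 10 chemokines relative to the array's 75th percentile (vertical axis) on each of the 12 arrays, by sex (M male, F female) and treatment (veh vehicle, dex dexamethasone). Points are arrays in replicate order, black lines are group means, and the grey line marks level 0. Treated arrays lie below vehicle arrays for Cxcl10, Ccl2, Ccl4 and Cxcl12 in both sexes, while 1 male dexamethasone array of Cxcl1 lies at 4.77.

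Among the interferon-inducible ligands of Cxcr3, Cxcl10 had levels of 0.47, 1.04 and -0.06 in vehicle males and -4.12, -4.89 and -4.74 in treated males. Its levels were 0.65, 1.01 and 0.57 in vehicle females and -1.56, -1.56 and -3.67 in treated females. Every treated array was below every vehicle array of its sex, and female dexamethasone 3 was the lowest of the treated females. Relative to the upper-quartile signal, male Cxcl10 went from 95.8 to 205% under vehicle to 3.36 to 5.77% under dexamethasone. The effect was -5.06 ± 0.51 in males (adjusted p = 0.000234) and -3.01 ± 0.51 in females (adjusted p = 0.00489), a fall of 33.5-fold and 8.03-fold. Without female dexamethasone 3 the female effect was -2.30 (adjusted p = 0.00363). Within slides that held both male groups it was -5.37 and -5.46, and within those that held both female groups -2.57 and -3.26. With normexp background correction, which adds an offset and so compresses dim signals, the Cxcl10 effects were -2.79 (adjusted p = 0.00828) and -1.96 (adjusted p = 0.0466).

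The Cxcl10 probe lies at chr5:92334002-92334061 on the minus strand in the array design's mm7 coordinates. RefSeq promoters were found for 5 of the 10 genes (Cxcl1, Cxcl9, Cxcl10, Cxcl12 and Cxcl13). The 250 bases before the start are shown for Cxcl10 and Cxcl9, which share interferon inducibility but had effects of different size here, and for Cxcl1, described further on. Capitals mark matches to the NF-kB consensus or to the interferon-stimulated response element GAAANNGAAA, on either strand.
Cxcl10, GRCm38.p6 chr5:92348890-92349139, minus strand: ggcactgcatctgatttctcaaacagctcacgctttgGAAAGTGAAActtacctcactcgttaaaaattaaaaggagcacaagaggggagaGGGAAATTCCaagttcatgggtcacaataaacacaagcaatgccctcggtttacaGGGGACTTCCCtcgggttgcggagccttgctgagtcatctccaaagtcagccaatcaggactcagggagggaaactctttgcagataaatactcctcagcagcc
Cxcl9, GRCm38.p6 chr5:92328080-92328329, minus strand: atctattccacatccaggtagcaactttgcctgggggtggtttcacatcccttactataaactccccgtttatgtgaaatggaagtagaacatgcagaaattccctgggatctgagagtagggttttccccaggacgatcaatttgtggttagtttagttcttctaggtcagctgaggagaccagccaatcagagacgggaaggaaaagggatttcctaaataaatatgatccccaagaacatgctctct
Cxcl1, GRCm38.p6 chr5:90890995-90891244, plus strand: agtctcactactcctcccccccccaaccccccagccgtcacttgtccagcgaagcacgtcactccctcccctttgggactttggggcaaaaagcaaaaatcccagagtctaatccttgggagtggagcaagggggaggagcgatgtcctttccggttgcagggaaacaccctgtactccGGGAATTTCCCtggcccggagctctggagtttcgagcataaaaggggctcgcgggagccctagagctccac
The Cxcl10 stretch held the NF-kB consensus at GGGAAATTCC, 159 to 150 bases before the start, and at GGGGACTTCC, 104 to 95 bases before it, where a further match is shifted by a single base. It also held the interferon element GAAAGTGAAA, 213 to 204 bases before the start, and the AP-1 motif TGANTCA, 74 to 68 bases before it. Cxcl1 held GGGAATTTCC, 71 to 62 bases before the start, which overlaps a match on the other strand, and ACANNNTGT, the letters of a glucocorticoid response element, 85 to 77 bases before it. The Cxcl9, Cxcl12 and Cxcl13 stretches held none of the 4 motifs in these windows. Of 32851 promoters searched in the same way, 7.25% held the NF-kB consensus, 2.98% GAAANNGAAA, 6.75% TGANTCA and 5.84% ACANNNTGT. A match of letters is a description of the sequence and was not tested for binding.

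Cxcl9 had levels of 0.38, 0.65 and 0.00 in vehicle males and -0.80, 0.09 and -1.13 in treated males. In females the levels were 1.90, 0.99 and 0.85 under vehicle and 0.20, 0.66 and 0.55 under dexamethasone. Treated and vehicle levels overlapped in males at male dexamethasone 2, and the female groups did not overlap. The effects were -0.96 ± 0.35 in males (adjusted p = 0.0715) and -0.78 ± 0.35 in females (adjusted p = 0.170), neither past the threshold. Without male dexamethasone 2 the male effect was -1.31 (adjusted p = 0.0234), and without female vehicle 1, which lowers the shared spread, its adjusted p was 0.0471.

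Cxcl11 is listed in the RefSeq table of C57BL/6J as a transcribed pseudogene, and its probe spans 152 bases of mm7 (chr5:92348344-92348495, minus strand). Levels were -1.19, -1.26 and -1.14 in vehicle males and -2.79, -2.85 and -2.12 in treated males, with no overlap. In females they were -0.99, -0.80 and -0.23 under vehicle and -0.87, -0.79 and -2.72 under dexamethasone. Only female dexamethasone 3 was below all vehicle females. The effect was -1.39 ± 0.45 in males (adjusted p = 0.0466) and -0.79 ± 0.45 in females (adjusted p = 0.284). The male call was lost under 13 of 22 alternatives, among them leaving out any 1 male array other than male dexamethasone 3 (adjusted p = 0.0951 to 0.131) or any 1 vehicle female (adjusted p = 0.0524 to 0.0574). With the replicate number as a block its adjusted p was 0.0828.

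Of the ligands of Ccr2, Ccl2 was measured by 10 spots of 1 probe (chr11:82118723-82118782, plus strand, mm7), which were averaged. Levels were -1.06, -0.64 and -1.82 in vehicle males and -4.57, -5.15 and -4.48 in treated males. In females they were -0.25, -0.10 and -0.32 under vehicle and -2.52, -2.51 and -3.98 under dexamethasone. No treated array reached the range of its vehicle group, and as with Cxcl10 the lowest treated female was female dexamethasone 3. Ccl2 fell by 3.56 ± 0.40 in males (adjusted p = 0.000376) and fell by 2.78 ± 0.40 in females (adjusted p = 0.00223), which is 11.8-fold and 6.87-fold. The within-slide differences were -4.09 and -3.89 in males and -2.41 and -3.00 in females. With normexp the Ccl2 effects were -1.41 (adjusted p = 0.122) and -1.60 (adjusted p = 0.105), and with its local background capped, for the reason given under Ccl4, -2.03 (adjusted p = 0.000288) and -2.21 (adjusted p = 0.000221).

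Ccl7, the other Ccr2 ligand, had 2 probes that gave different results. They lie at chr11:82128577-82128636 and, further along the gene, at chr11:82128729-82128788, both on the plus strand of mm7, and the first 30 of their 60 bases are shown because the result depends on which is read.
Ccl7, brighter probe: gcatggaagtctgcgctgaagcccatcaga
Ccl7, dimmer probe: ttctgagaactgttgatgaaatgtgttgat
The brighter probe was well above background on all 12 arrays. Its levels were -3.85, -3.35 and -3.38 in vehicle males, -3.73, -4.81 and -3.13 in treated males, -3.09, -3.42 and -2.60 in vehicle females and -3.37, -4.59 and -3.11 in treated females. Treated and vehicle arrays overlapped in both sexes, and the effects were -0.36 ± 0.46 (adjusted p = 0.630) and -0.65 ± 0.46 (adjusted p = 0.398). The dimmer probe was well above background on all 6 vehicle arrays, on 1 of 3 treated male arrays and on no treated female array. In a fit of every probe on its own it was at least 5.77-fold lower in treated females (adjusted p = 0.0186). The male difference was -2.47 ± 0.66 (adjusted p = 0.0221), and its size rests in part on the 2 treated arrays without a signal well above background. This probe passed the filter only through the vehicle groups, where it was higher. Its p-values in both sexes rest in part on signals not well above background, so they are weak support for a fall. The "at least" sets the mean of the measured group against the lowest signal well above background on each array of the other. The mean of the 2 probes, in place of the brighter one, passed in both sexes. It fell by 1.42 in males (adjusted p = 0.00281) and by 1.74 in females (adjusted p = 0.00186). That mean includes signals of the dimmer probe that were not well above background, and so do its p-values. The reason for the disagreement between the probes was not tested.

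Ccl4 and Ccl5, attractants of T cells and macrophages, were measured by 1 and 2 probes. Ccl4 had levels of -2.77, -2.38 and -3.36 in vehicle males and -4.86, -5.17 and -4.65 in treated males. Its levels were -1.98, -2.31 and -2.55 in vehicle females and -3.99, -4.31 and -4.82 in treated females. The groups were apart in both sexes by over 1 log2 unit. Ccl4 fell by 2.06 ± 0.28 in males (adjusted p = 0.000991) and fell by 2.09 ± 0.28 in females (adjusted p = 0.00152). Ccl4 is dim here, at 2.77 to 6.29% of the upper-quartile signal under dexamethasone. With normexp background correction its effects shrank to -0.15 (adjusted p = 0.872) and -0.47 (adjusted p = 0.583). With the local background capped, since 1 male and 1 female treated array held spots of very high local background, they were -0.83 (adjusted p = 0.00695) and -1.18 (adjusted p = 0.00116).

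Ccl5 was read by 2 probes that gave near-equal effects. On the brighter probe the levels were 0.78, 1.10 and 0.31 in vehicle males and -0.18, 0.58 and 0.01 in treated males. In females they were 2.00, 0.66 and 1.29 under vehicle and 0.98, 1.04 and 0.99 under dexamethasone. The treated females lay within the vehicle range, and in males male dexamethasone 2 was inside it. The effects were -0.59 ± 0.32 in males (adjusted p = 0.223) and -0.31 ± 0.32 in females (adjusted p = 0.585). On the dimmer probe, in the fit by probe, they were -0.63 ± 0.31 (adjusted p = 0.177) and -0.34 ± 0.31 (adjusted p = 0.525).

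**Figure D2:**
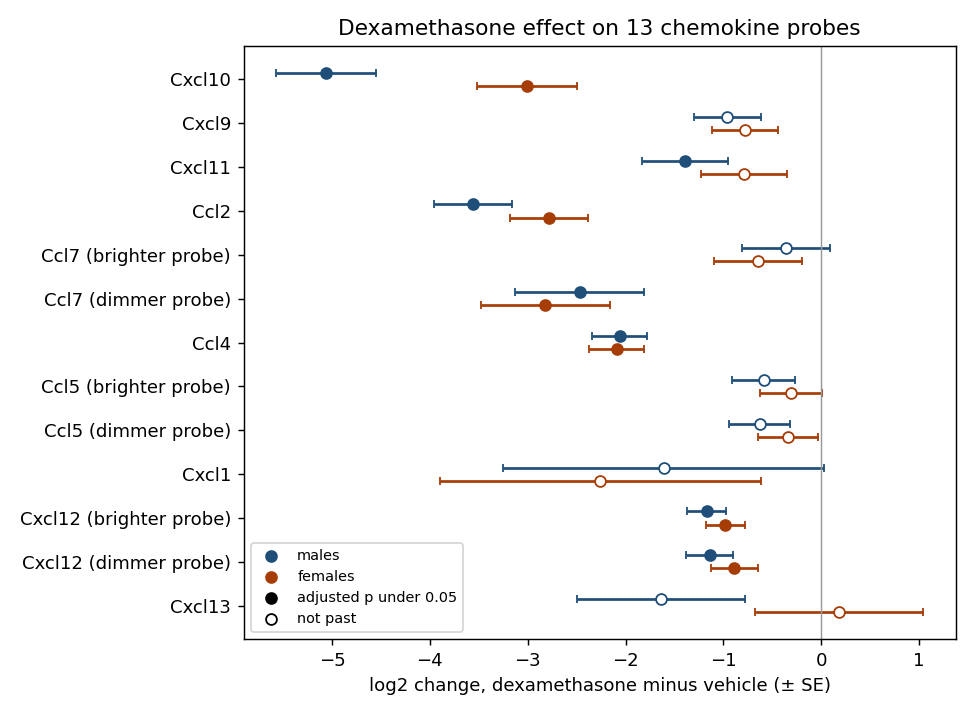
Log2 effect of dexamethasone (treated minus vehicle, horizontal axis) with its SE for each of the 13 chemokine probes, fitted probe by probe, in males (blue) and females (brown). Filled points passed an adjusted p of 0.05 over all probes. Cxcl10 has the lowest values, both Cxcl12 probes lie near -1, and the 2 Ccl7 probes lie apart.

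Cxcl1, the neutrophil attractant, had levels of 1.48, 1.10 and 0.58 in vehicle males and 0.54, 0.41 and 0.67 in vehicle females. Under dexamethasone it was at -1.55, -2.31 and -1.30 in females, at -2.87 and -3.57 on 2 male arrays and at 4.77 on male dexamethasone 3. Treated arrays other than male dexamethasone 3 were thus all below every vehicle array, and that array was above them all. Its Cxcl1 spot had a processed intensity of 18300 against 108 and 48.7 on the other treated males, with an ordinary local background of 45.5 and no flag as outlier or saturated. The gap of 7.64 log2 units to the nearer male of the group was the largest of all 19339 genes on that array.

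With all arrays, the Cxcl1 effect was -1.61 ± 1.66 in males (adjusted p = 0.545) and -2.26 ± 1.66 in females (adjusted p = 0.419). Without male dexamethasone 3 it was -4.27 in males (adjusted p = 0.000187) and -2.26 in females (adjusted p = 0.0023). The female estimate is the same in both, and its p moves because the 4 groups share 1 estimate of spread. In a fit of the female groups alone the adjusted p was 0.0106. Without that array 6 of the 10 chemokines fell in males, against 9.80% of all genes, and 5 in females, against 6.74%. The array was set aside because of its Cxcl1 value, and fewer treated males remain without it. The p-values of Cxcl1 and the counts without it are therefore descriptions and no independent support for a fall.

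No other member stood more than 0.67 log2 units outside the range of the other treated males on that array. Genes picked after their values were seen also stood high on that array. Socs3, a feedback inhibitor of cytokine receptors, was at 4.50 against 0.94 and 0.82, and Lcn2, an acute-phase protein, at 5.76 against 2.92 and 2.75. S100a9, a neutrophil protein, was at 1.75 against -3.27 and -1.45, while vehicle males were at 1.35, 1.48 and -0.27. The summed neutrophil markers (8 of 9 listed were on the array) ranged from 40.8 to 412% of the upper-quartile signal in treated males, 153 to 364% in vehicle males, 242 to 293% in vehicle females and 75.3 to 284% in treated females. S100a9 made up most of the 412%, the sum of male dexamethasone 3, so that sum adds little to the S100a9 level. Csf3r, the receptor of granulocyte colony-stimulating factor, was at -1.51 on that array against -1.97 and -2.25. Cxcl2, a close relative of Cxcl1, was well above background on only 1 array of the series, female dexamethasone 1. Its level there was -5.16. On male dexamethasone 3 Cxcl2 was at -7.48, against -7.31 and -7.55 on the other treated males, none of them well above background. Cxcl2 thus showed no detectable rise on that array, and a rise that stayed below background would not be seen. The part of neutrophils in the Cxcl1 level was not tested.

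The homeostatic chemokines gave contrasting results. Cxcl12 was read by 2 probes, at chr6:117207552-117207611 and chr6:117200799-117200858 on the plus strand of mm7. On the brighter probe the levels were 5.83, 5.61 and 5.28 in vehicle males and 4.23, 4.19 and 4.78 in treated males. In females they were 5.86, 5.89 and 5.77 under vehicle and 5.01, 4.94 and 4.62 under dexamethasone. The groups did not overlap in either sex. Cxcl12 fell by 1.17 ± 0.19 in males (adjusted p = 0.00236) and by 0.98 ± 0.19 in females (adjusted p = 0.00929). The dimmer probe fell by 1.14 ± 0.24 (adjusted p = 0.00716) and by 0.89 ± 0.24 (adjusted p = 0.0337) in the fit by probe. Its signal on the brighter probe was at least 1830% of the upper-quartile signal on every array. With normexp the female fall of Cxcl12 lost its call (-1.27, adjusted p = 0.0621), and with the local background capped it passed (-1.09, adjusted p = 0.0025).

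Markers of cells known to make Cxcl12 moved in part. Of 10 endothelial markers 4 fell and 2 rose in males, and 2 fell and 1 rose in females. Over all genes tested the shares were 12.1% lower and 10.4% higher in males, and 6.88% lower and 6.79% higher in females. Their sum was 2890 to 3690% of the upper-quartile signal in vehicle and 2740 to 3150% in treated males, and 3320 to 5670% and 3070 to 5240% in females. Of 10 stellate-cell and fibroblast markers 4 fell and 1 rose in males, and none fell or rose in females. Their sum was 5280 to 6210% and 5120 to 5250% in males, and 5890 to 6850% and 6860 to 7550% in females. Their part in the Cxcl12 values was not tested.

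Cxcl13, the B-cell attractant, varied widely among animals of 1 group. Its levels were -2.40, 0.39 and -2.32 in vehicle males and -2.53, -3.85 and -2.89 in treated males. In females they were -1.86, -0.45 and -1.67 under vehicle and 0.60, -1.76 and -2.29 under dexamethasone. Male vehicle 2 and female dexamethasone 1 each stood over 2 log2 units above the others of their groups. The effects were -1.64 ± 0.87 in males (adjusted p = 0.207) and 0.18 ± 0.87 in females (adjusted p = 0.925).

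The difference between the sexes in the response was tested with the interaction term of the same limma fit. No chemokine passed, and 0.00517% of all genes did (1 gene). Cxcl10 had the lowest unadjusted p of the 10, with a female effect 2.06 ± 0.72 above the male effect (95% interval 0.46 to 3.65, adjusted p = 0.801). It was 2.76 without female dexamethasone 3 (adjusted p = 0.0529) and 0.83 with normexp, capped or not. For Ccl2 the difference was 0.78 (interval -0.48 to 2.04), for Ccl4 -0.03 (-0.92 to 0.85) and for Cxcl12 0.19 (-0.42 to 0.80). For Cxcl1 the interval ran from -5.84 to 4.54, the widest of the 10. Without male dexamethasone 3 the Cxcl1 difference was 2.01 ± 0.46 (adjusted p = 0.402).

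Under vehicle, no chemokine differed between females and males in the limma fit, against 1.97% of all genes. The lowest unadjusted p of the chemokines were those of Ccl2 (0.95 ± 0.40, adjusted p = 0.333) and Cxcl9 (0.91 ± 0.35, adjusted p = 0.275), both with the higher values in females. Female arrays were all above male arrays for 3 chemokines, Ccl2, Cxcl9 and Cxcl11, as for 8.28% of all genes. Under dexamethasone 2 were higher in females, against 3.27% of all genes: Cxcl10 by 2.32 ± 0.51 (adjusted p = 0.0273) and Ccl2 by 1.73 ± 0.40 (adjusted p = 0.033). Treated females were all above treated males for 5 chemokines, Cxcl10, Ccl2, Cxcl9, Ccl5 and Cxcl13, as for 11.7% of all genes. Both calls were lost with the slide as a block, where the differences were 2.83 for Cxcl10 (adjusted p = 0.0668) and 2.23 for Ccl2 (adjusted p = 0.0557). They were lost with normexp, at 1.10 and 0.65 (adjusted p = 0.696 and 0.998), and with its capped form, at 1.09 and 0.66 (adjusted p = 0.0889 and 0.149). With only the groups compared the differences were the same as with all groups, and the adjusted p rose to 0.101 and 0.0966. Without female dexamethasone 3 both were larger and passed, at 3.02 (adjusted p = 0.00117) and 2.22 (adjusted p = 0.00465). Without female dexamethasone 1, in contrast, neither passed (adjusted p = 0.0995 and 0.117), nor without female dexamethasone 2 (0.0872 and 0.104), male dexamethasone 2 (0.0882 and 0.110) or male dexamethasone 3 (0.071 and 0.0582). Without male dexamethasone 1 only Ccl2 was lost (0.0715). Without male dexamethasone 3, which was set aside for its Cxcl1 value, Cxcl1 too was higher in treated females, by 1.5 (adjusted p = 0.0437).

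Ly6c1, a monocyte and endothelial surface protein, was higher in females, at 2170 to 3540% of the upper-quartile signal under vehicle against 284 to 482% in males, and made up most of the summed monocyte and dendritic markers. That sum was 328 to 536% in vehicle males, 166 to 357% in treated males, 2230 to 3620% in vehicle females and 1760 to 1910% in treated females. The summed Kupffer cell and macrophage markers were 7280 to 11300%, 5350 to 7030%, 10600 to 16500% and 7820 to 15000% in the same order. Between treated females and treated males, 1 of 12 Kupffer cell and macrophage markers, 3 of 5 monocyte and dendritic markers (median 1.18) and 5 of 14 T- and NK-cell markers (median 1.01) were higher in females, and none was lower. So were 2 of 10 endothelial, 2 of 10 stellate-cell and fibroblast and 1 of 8 B-cell markers (medians 0.44, 0.53 and 0.53). None of these was lower, and no neutrophil, cholangiocyte or hepatocyte marker passed in either direction. Over all genes tested 3.27% were higher in treated females. Itgax, an integrin of dendritic cells and macrophages, was at 9.80 to 10.9% in treated females and 2.47 to 3.86% in treated males. The part of these cells in the sex difference of Ccl2 and Cxcl10 was not tested.

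Across the 12 arrays the chemokines fell into patterns that the group differences dominate, so correlations are given as descriptions. Cxcl10, Ccl2, Ccl4 and Cxcl12 varied together, with Pearson's r of 0.94 to 0.98 for every pair. Cxcl9 and Ccl5 correlated at 0.92, higher than either did with any other member. Cxcl1 had its highest r with Ccl7 (0.59) over all 12 arrays. Over the 11 arrays without male dexamethasone 3, a choice made after seeing the data, Cxcl1 correlated at 0.635 with Ccl7 and at 0.890 to 0.923 with Cxcl10, Ccl2, Ccl4 and Cxcl12.

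**Figure D3:**
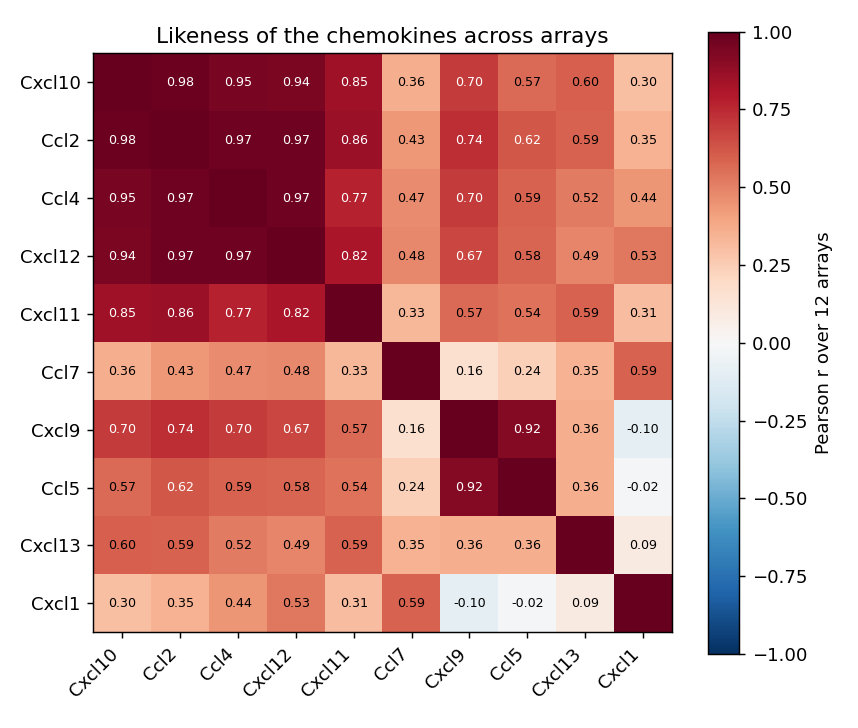
Pearson's r of log2 levels over the 12 arrays for each pair of the 10 chemokines, from -1 (blue) to 1 (red); the diagonal carries no number. Cxcl10, Ccl2, Ccl4 and Cxcl12 form a block of r from 0.94 to 0.98, Cxcl9 and Ccl5 pair at 0.92, and Cxcl1, with male dexamethasone 3 included, stays at or below 0.59 with all others.

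The named gene most like each chemokine over the 12 arrays was found by Pearson's r among all genes tested. It was Kcnj10 for Cxcl10 (r = 0.992), Cd274 for Ccl2 (0.991), Nfkbie for Cxcl12 (0.981) and BC023105 for Ccl4 (0.980). It was Tnfsf15 for Cxcl1 (0.979, and 0.960 over the 11 arrays without male dexamethasone 3), Cd7 for Ccl5 (0.970), B4galt5 for Cxcl11 (0.960) and Psmb8 for Cxcl9 (0.957). The lowest best values were those of Pcgf1 for Cxcl13 (0.916) and Igsf23 for Ccl7 (0.897). Cd274 encodes the checkpoint ligand PD-L1, Nfkbie an inhibitor of NF-kB, Psmb8 a subunit of the immunoproteasome and Cd7 a T- and NK-cell surface protein.

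The receptors of the 10 chemokines fell in part. Of 12 receptors, 9 were tested. In males 5 fell and none rose, and in females 2 fell and none rose. Over all genes tested 12.1% fell and 10.4% rose in males, and 6.88% fell and 6.79% rose in females. The same shares apply to the list counts that follow. Genes of those lists were named by their largest effects in each sex, so one given for a single sex may have moved in the other too. The median was -0.92 in males and -0.24 in females. Cxcr5, the receptor of Cxcl13, was well above background on no treated male array and was at least 4.83-fold lower there (adjusted p = 0.00415). In females Cxcr5 fell by 2.90 ± 0.63 (adjusted p = 0.0138), with 2 of 3 treated arrays well above background. Ackr1, a decoy that binds many inflammatory chemokines on endothelium and red cells, fell by 1.46 ± 0.18 in males (adjusted p = 0.000573) and by 1.04 ± 0.18 in females (adjusted p = 0.00501). Ccr2, the receptor of Ccl2 and Ccl7, fell by 1.37 ± 0.23 in males (adjusted p = 0.0023), while its female effect was 0.02 ± 0.23 (adjusted p = 0.966). Ackr3, a scavenger of Cxcl12, fell by 0.92 ± 0.27 in males (adjusted p = 0.0315), with -0.86 in females (adjusted p = 0.0578).

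Cxcr3, the receptor of Cxcl9 and Cxcl10, was not past the threshold (-0.50 in males, adjusted p = 0.179, and -0.24 in females, adjusted p = 0.583). Nor were Cxcr4, the signalling receptor of Cxcl12 (1.37 and 0.28), Ccr3 (-0.17 and -0.13) or the decoy Ackr2 (0.67 and 0.29). Cxcr1 and Ccr1 were well above background on no array, and Cxcr2, the receptor of Cxcl1, on 3, so none of these was tested. No receptor passed the test of the difference between the sexes in its response.

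Marker lists of the cells that carry these receptors moved as well. The summed B-cell markers went from 269 to 441% of the upper-quartile signal under vehicle to 77.6 to 180% under dexamethasone in males, and from 238 to 624% to 113 to 222% in females. Of 8 B-cell markers tested, 5 fell in males and 4 in females, and Blk was well above background on no array. The T- and NK-cell sum was 165 to 230% in vehicle and 124 to 175% in treated males, and 198 to 308% and 169 to 224% in females. Of 14 tested there, 6 fell and 1 rose in males, and none fell and 2 rose in females. Of 5 monocyte and dendritic markers tested, 3 fell in males and none in females. Itgax among them went from 9.34 to 14.5% to 2.47 to 3.86% in males and from 12.6 to 23.0% to 9.80 to 10.9% in females. The part of cell numbers in the receptor values was not tested.

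Among 27 other chemokines, 18 were tested. In males 7 fell and 1 rose, and in females 4 fell and none rose, with medians of -0.49 and -0.28. Ccl3, a macrophage inflammatory protein like Ccl4, fell by 2.17 ± 0.37 in males (adjusted p = 0.00256, well above background on 2 of 3 treated arrays) and by 2.08 ± 0.37 in females (adjusted p = 0.00587). Ccl12, a mouse Ccr2 ligand, fell by 1.42 ± 0.41 (adjusted p = 0.0329) and by 1.87 ± 0.41 (adjusted p = 0.015), but it was well above background on only 1 of 3 treated arrays of each sex, so these sizes rest in part on signals that were not. Cxcl16, the ligand of Cxcr6, fell in females by 1.05 ± 0.16 (adjusted p = 0.00269). Xcl1, made by T and NK cells, was well above background on no treated male array and was at least 2.52-fold lower there (adjusted p = 0.00654). Ccl17, a ligand of Ccr4, rose in males by 1.77 ± 0.39 (adjusted p = 0.00929), with 1.23 in females (adjusted p = 0.0609).

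Of 11 other chemokine receptors, 8 were tested, and 3 fell in males and 1 in females. Ccr7, which guides cells to lymph nodes, was well above background on no treated male array and was at least 2.65-fold lower there (adjusted p = 0.00512). Ackr4, a scavenger of Ccr7 ligands, fell by 1.38 ± 0.26 in males (adjusted p = 0.00436) and by 1.32 ± 0.26 in females (adjusted p = 0.00913). Cxcr6 fell by 0.94 ± 0.29 in males (adjusted p = 0.0389), with -0.68 in females (adjusted p = 0.149).

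**Figure D4:**
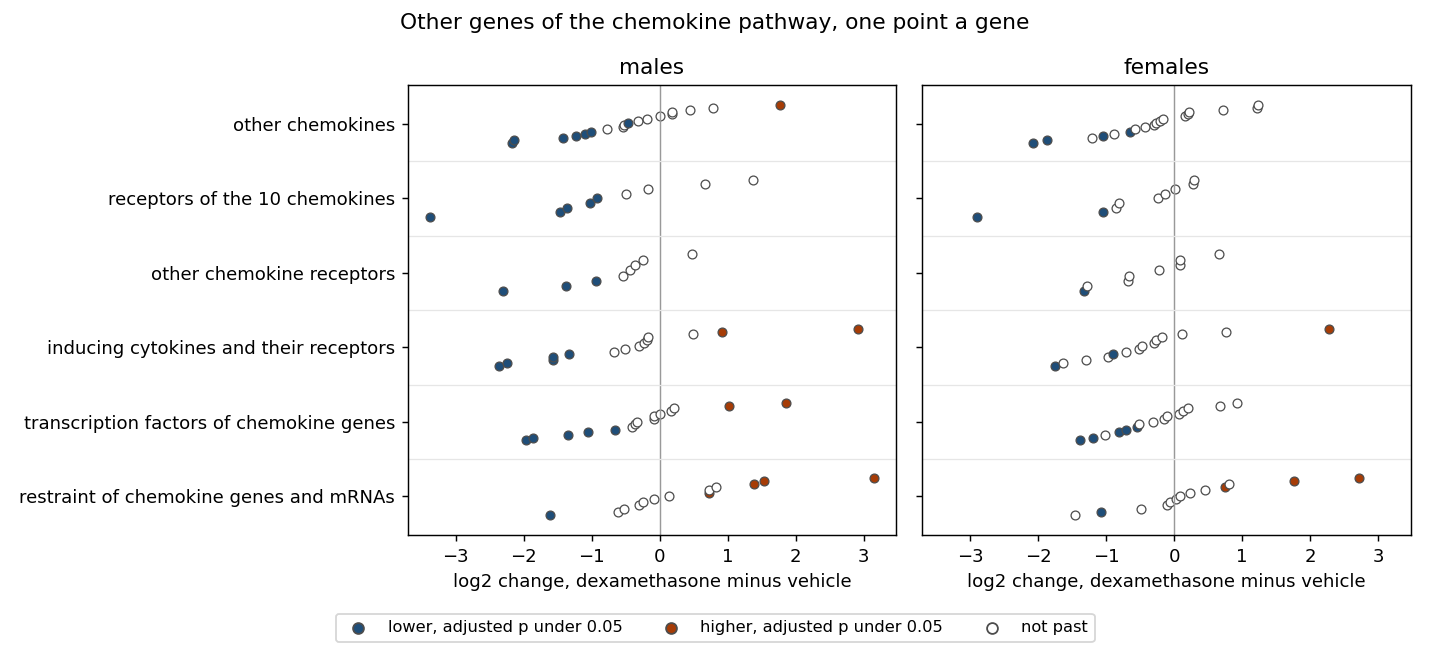
Log2 effect of dexamethasone (treated minus vehicle, horizontal axis) on each tested gene of 6 lists from the chemokine pathway, in males (left) and females (right). Blue points fell and brown points rose past an adjusted p of 0.05 over all genes, and white points did not pass. In males 7 of 18 other chemokines fell and 1 rose, and 4 of 13 genes of the restraint list rose.

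The cytokines that induce chemokine genes, with their receptors, gave 5 lower and 2 higher of 14 tested in males and 2 lower and 1 higher in females. Tnf was well above background on no treated male array and was at least 2.42-fold lower there (adjusted p = 0.00759), and in females it fell by 1.75 ± 0.47 (adjusted p = 0.0352), with 2 of 3 treated arrays well above background. In males Il1b fell by 2.36 ± 0.67 (adjusted p = 0.0301), and Il1a fell by 1.57 ± 0.32 (adjusted p = 0.00704). Ifng also fell by 1.57 there (adjusted p = 0.0204), with a signal well above background on only 1 of 3 treated male arrays, so that size is uncertain. Ifngr2, a chain of the interferon gamma receptor, fell in females by 0.90 ± 0.23 (adjusted p = 0.0287). Il1r1, the signalling receptor of interleukin-1, rose by 2.91 ± 0.36 in males (adjusted p = 0.00065) and by 2.28 ± 0.36 in females (adjusted p = 0.00364). Tnfrsf1b rose in males by 0.91 ± 0.29 (adjusted p = 0.0476).

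Of 15 transcription factors tested, 5 fell and 2 rose in males, and 5 fell and none rose in females. Relb, a subunit of NF-kB, fell by 1.86 ± 0.24 in males (adjusted p = 0.00071) and by 1.38 ± 0.24 in females (adjusted p = 0.00528). Irf7, an interferon regulatory factor, fell by 1.35 ± 0.21 (adjusted p = 0.0017) and by 0.81 ± 0.21 (adjusted p = 0.0291). Irf1 fell in males by 1.97 ± 0.40 (adjusted p = 0.00633), with -1.01 in females (adjusted p = 0.123), and Irf9 fell by 1.19 ± 0.33 in females (adjusted p = 0.037). Jun, a subunit of AP-1, rose in males by 1.85 ± 0.34 (adjusted p = 0.00401), and Cebpb by 1.02 ± 0.24 (adjusted p = 0.0123).

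The list of genes that restrain chemokine transcription or mRNA held 13 tested genes, of which 4 rose and 1 fell in males and 3 rose and 1 fell in females. Its medians were 0.13 and 0.08. Dusp1, a phosphatase that shuts off stress kinases, rose by 3.15 ± 0.54 in males (adjusted p = 0.00288) and by 2.72 ± 0.54 in females (adjusted p = 0.00954). Tsc22d3, the glucocorticoid-induced leucine zipper, rose by 1.54 ± 0.37 (adjusted p = 0.0131) and by 1.76 ± 0.37 (adjusted p = 0.0115). Zfp36, which destabilises cytokine and chemokine mRNAs, rose in males by 1.39 ± 0.44 (adjusted p = 0.0432), with 0.08 in females (adjusted p = 0.937). Nfkbib, an inhibitor of NF-kB, rose in females by 0.75 ± 0.17 (adjusted p = 0.0156). Nfkbie, another such inhibitor and itself a target of NF-kB, fell by 1.61 ± 0.24 (adjusted p = 0.00144) and by 1.08 ± 0.24 (adjusted p = 0.0152). No gene of these lists passed the test of the difference between the sexes in its response.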

How the data were processed

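Liver RNA of 12 mice was labelled with Cy3 and hybridized 1 animal per array. The deposited files hold spot intensities that the authors' software, Agilent Feature Extraction 9.5 per the submitters' processing notes, had background-subtracted and detrended per the file headers. The deposited series values equalled these intensities for every spot. Intensities were put on a log2 scale and set relative to the 75th percentile of the array's non-control spots. Outlier spots were left out and the spots of a probe averaged, which dropped 57 probes. A probe counted as well above background on an array where over 0.5 of its spots were flagged so, and was kept if that held on all 3 arrays of at least 1 group (28840 probes). Where a kept probe lacked such a signal on arrays of another group, its p-values rest in part on signals not well above background. The probe brightest on average stood for its gene (19339 genes). Names were updated through RefSeq tables of GRCm38.p6, which also gave the promoters.

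The 4 group means were fitted to all 12 arrays with limma 3.58.1 in R 4.3.3 (files read with data.table version 1.17.8), with 8 residual degrees of freedom and empirical Bayes moderation. Adjusted p-values are Benjamini-Hochberg values over all genes, with a threshold of 0.05. The fit was also run on simulated arrays with independent normal noise, which held no outlier array, slide effect or background floor. That run checks the calculation only and does not bear on the results here. The labels describe 3 biological replicates a group. Arrays of the same replicate number did not deviate together (r of -0.22 to 0.33, median -0.11, over 18 pairs), so the numbers were not taken to pair animals. Slide and scan coincide, and on slides that held both groups of a sex its vehicle arrays preceded its treated arrays; the part of position was not tested.

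The chemokines, lists and tests were chosen with earlier results of these data known. Named genes were all 10 chemokines and their probes, the 12 receptors of these chemokines (1 of them is not reported here), up to 3 genes of each list with the largest effect past the threshold in each direction and sex, and the named gene most like each chemokine. Alternatives were quantile normalization, normexp background correction (offset 50), no filter or a stricter one, the mean of a gene's probes, slide or replicate blocks, array weights, a fit of only the groups compared, and leaving out each array. Added after the data were seen were normexp with the local background capped at the 99.9th percentile and a fit by probe. The number of arrays limits the precision.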

Additional observations from a re-analysis of the deposited data

How the results depend on the processing

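Quantile normalization, no filter, probes above background on all 12 arrays, the mean of a gene's probes and array weights left the counts of called chemokines within 1.5 times in every comparison. Single calls changed all the same. The mean of a gene's probes added Ccl7 in males and in females. Array weights added Cxcl11 between treated sexes (1.63, adjusted p = 0.00969), and with no filter Cxcl11 in males was lost (adjusted p = 0.0653). Normexp background correction left 2 chemokines called in males (Cxcl10 and Cxcl12), 1 in females (Cxcl10) and 0 between the sexes under dexamethasone. It also cut the calls over all genes from 4359 to 908 in males and from 2644 to 536 in females, and moved the median of all genes to 0.26 and 0.24. That sex difference also fell to 0 calls with the capped background, with the slide as a block and with only the groups compared. With the replicate block 4 chemokines were called in males, 4 in females and 2 between treated sexes, and Cxcl11 in males was the only loss. Leaving out 1 array gave 4 to 6 calls in males, 4 to 5 in females, and 0 to 3 between treated sexes, where 3 came without female dexamethasone 3. The cause of these changes was not tested. Apart from normexp, the counts are given here without the share of all genes called under the same setting. The printed counts alone therefore do not separate a change in the chemokines from a shift shared by all genes.

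Signs turned for values that passed no threshold under either setting, with 1 exception. With normexp the Ccl7 effect was 0.53 in males and 0.19 in females. The female minus male effect became 0.12 for Cxcl1 with the slide block, -0.06, -0.05 and -0.03 for Cxcl9 (normexp, slide block, array weights), -0.18 for Ccl2 (both normexp settings), and 0.16 and 0.17 for Ccl4 (slide block, array weights). Females minus males was -0.16 for Cxcl13 under vehicle (array weights), and under dexamethasone -0.02 for Ccl4 (capped) and -0.13 and -0.07 for Ccl7 (normexp, capped). Leaving out 1 array gave ranges across 0 for the Ccl7 effect in males (-0.75 to 0.09) and, in females, for Cxcl13 (-0.70 to 0.75) and Ccl5 (-0.64 to 0.03). The same held for the female minus male effect of Cxcl1 (-2.16 to 2.01), Cxcl9 (-0.08 to 0.53), Ccl4 (-0.26 to 0.23), Ccl5 (-0.05 to 0.62) and Ccl7 (-0.75 to 0.16). It held for females minus males under vehicle for Cxcl10 (-0.01 to 0.54) and Cxcl13 (-0.36 to 1.03), and under dexamethasone for Cxcl1 (-2.67 to 1.5) and Ccl7 (-0.26 to 0.65). The exception is Cxcl1 between treated sexes, whose 1.5 came without male dexamethasone 3 and passed.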
